A study of Mus musculus with 6 samples.

Results

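Transcripts of 9 genes that build the myelin sheath were compared between chronic stroke infarcts and contralateral cortices. The genes were taken by symbol, and all 9 were found among the 46078 Ensembl identifiers of the count tables. They encode 6 proteins of central myelin (*Mbp*, *Mobp*, *Mog*, *Mag*, *Cnp*, and *Mal*) and 3 enzymes that make its characteristic glycolipids (*Ugt8a*, *Fa2h*, and *Gal3st1*). Each region was represented by 3 libraries from wild type mice on the C57BL/6J background, collected 7 weeks after stroke, with an age of 3 months in the sample records. In the study, stroke was induced in male mice by permanent occlusion of the distal middle cerebral artery followed by hypoxia. The infarct was identified by eye and cut out, and the matching area of the other hemisphere of the injured brain was the reference, so that no brain without stroke entered the comparison. The records name no treatment, and do not state whether the 3 libraries of a region came from 3 mice or which infarct and cortex shared a mouse, so *p* values describe the spread between these libraries. Counts on genes ranged from 11943570 to 19933962 per library.

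Myelin is the multilayered membrane that oligodendrocytes wrap around axons in the brain. Its layers are held together by a small set of abundant proteins, and its lipid is rich in galactosylceramide and in sulfatide, the sulfated form of galactosylceramide. Galactosylceramide is made by the product of *Ugt8a* from ceramide, often after the fatty acid has been hydroxylated by the product of *Fa2h*, and sulfatide is made from it by the product of *Gal3st1*. Cortical gray matter holds fewer myelinated fibers than the white matter beneath it. The study was concerned with the lipid held in chronic infarcts, sulfatide included, and the comparison asked how the transcripts that build myelin stood in that tissue.

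The promoters are shown first, as a description of the genes. Core letters of SOX family or MYRF sites were found in 4 of the windows. A link between these letters and the levels in infarcts was not tested. RefSeq windows on GRCm38.p6 matched 7 of the genes, and there was no entry for *Mbp* and *Fa2h*. The printed strand is that of the gene, from 250 to 61 bases before the RefSeq start site, and capitals mark matches to ACAAAG or ACAATG, core letters of SOX family sites, and to CTGGCAC, core letters of the site of MYRF, on either strand. *Mobp*, the gene with the largest difference between regions, lies on the plus strand at chr9:120149492-120149681. *Cnp*, on the plus strand at chr11:100574689-100574878, and *Mag*, on the minus strand at chr7:30914924-30915113, are shown for holding both kinds of match. *Gal3st1*, on the plus strand at chr11:3983386-3983575, is shown as the gene with the lowest fitted value, which did not pass the test.
Mobp: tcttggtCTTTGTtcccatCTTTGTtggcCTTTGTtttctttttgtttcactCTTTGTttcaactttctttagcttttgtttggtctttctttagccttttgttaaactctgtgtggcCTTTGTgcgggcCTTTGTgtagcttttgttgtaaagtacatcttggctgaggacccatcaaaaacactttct
Cnp: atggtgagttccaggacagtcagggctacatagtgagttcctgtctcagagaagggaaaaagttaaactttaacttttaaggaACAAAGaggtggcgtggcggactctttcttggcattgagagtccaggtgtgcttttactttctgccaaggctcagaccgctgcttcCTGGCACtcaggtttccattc
Mag: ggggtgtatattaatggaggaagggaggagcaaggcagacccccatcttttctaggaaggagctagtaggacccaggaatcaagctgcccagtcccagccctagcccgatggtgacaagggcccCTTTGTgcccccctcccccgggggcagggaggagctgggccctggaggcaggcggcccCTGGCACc
Gal3st1: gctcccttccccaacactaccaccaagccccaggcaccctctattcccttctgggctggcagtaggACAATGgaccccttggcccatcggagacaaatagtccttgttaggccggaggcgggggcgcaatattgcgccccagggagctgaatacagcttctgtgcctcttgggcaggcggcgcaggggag

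ACAAAG occurred in the windows of *Mobp*, *Cnp*, and *Mag*, and in 13% of 32851 mouse promoter windows of the same 190 bases. *Mobp* held 6 matches to it, all read on the opposite strand, and no other of the 32851 windows held as many (0.00304%). CTGGCAC occurred in the windows of *Cnp* and *Mag*, compared with 3.2% of all windows, and both motifs occurred together in 0.405% of all windows. ACAATG occurred once, in *Gal3st1*, compared with 8.35% of all windows. CAGCTG, an E-box, and TATAAA were found in none of the 7 windows, compared with 9.81% and 8.73% of all windows. The windows of *Mog*, *Mal*, and *Ugt8a* held no match to the 5 motifs searched on both strands. The *Ugt8a* window was rich in G and C, at 74.7% with 23 CpG, compared with medians of 51.6% and 4 over all windows, while the *Mobp* window was at 38.4%. The motifs do not overlap one another in the printed windows, several windows of the table can belong to 1 gene, and a match is a stretch of letters and not a measured binding site.

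In infarcts, 7 of the 9 genes were upregulated relative to contralateral cortices, at an adjusted *p* under 0.05 in the quasi-likelihood test of edgeR, adjusted by Benjamini-Hochberg over all 15554 genes tested. These were the 6 protein genes and *Ugt8a*, with fold changes from 1.58 for *Ugt8a* to 3.03 for *Mobp*. None was downregulated. Among all genes tested, 34.2% were upregulated and 30.8% downregulated by the same rule. With the further requirement of a fold change above 2, which the study used, 3 of the 9 genes were called (*Mobp*, *Mbp*, and *Cnp*), a share close to the 25.7% of all genes, and none was called lower, compared with 20.9% of all genes. The number called was 5 without infarct 1 and 2 without infarct 3. The median log2 fold change was 0.78 over the 9 genes and 0.03 over all genes tested. For the same 7 genes every infarct library lay above every contralateral library, which was so for 37.6% of all genes tested, while 34.7% lay wholly below. All 9 genes passed the filter on low counts. In bulk tissue, a change in the number of oligodendrocytes and a change in the RNA of each one cannot be told apart. Levels are also relative to the other RNA of a library, so a loss of RNA from other cells cannot be told apart from either. The same holds for white matter cut out with the infarct, which in the study extended to the corpus callosum.

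**Figure D1:**
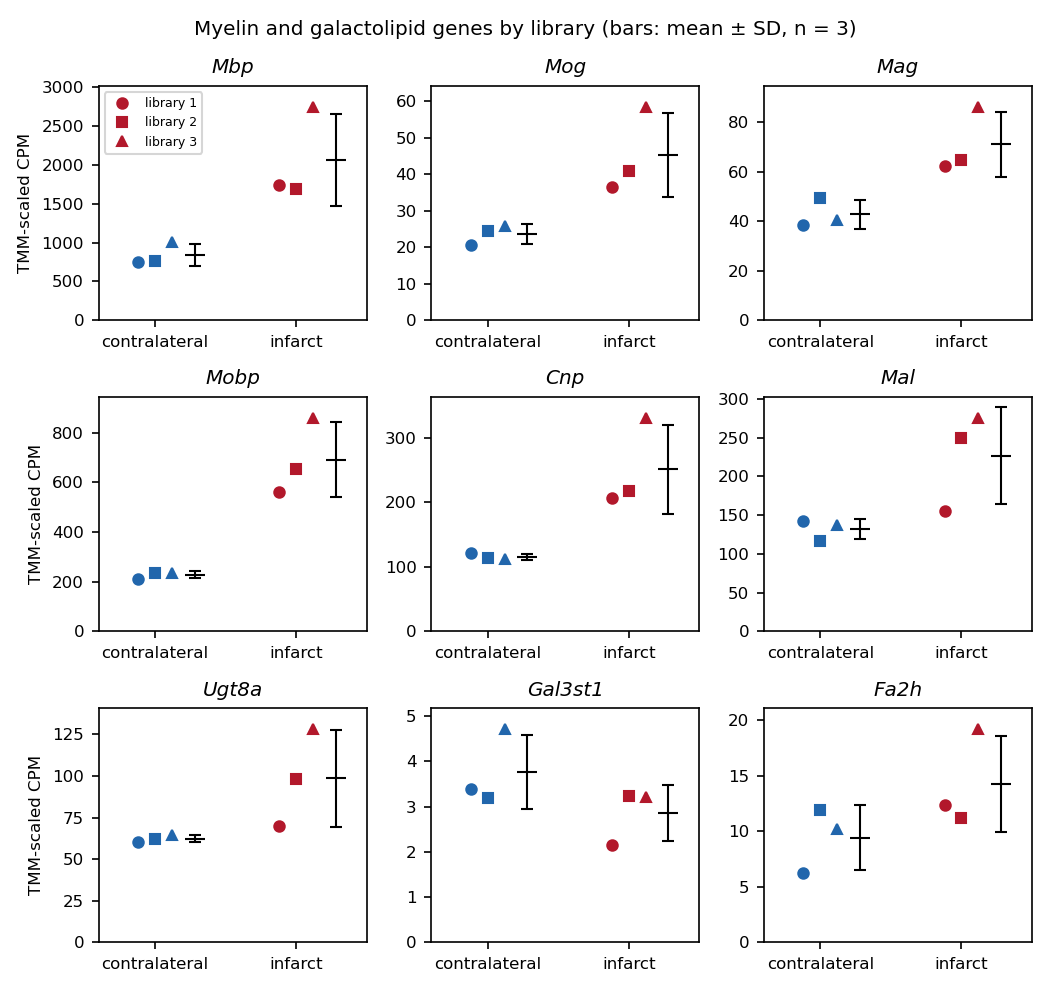
TMM-scaled CPM (counts per 1000000, vertical axis from 0) of each of the 9 genes in the 3 contralateral (blue) and 3 infarct (red) libraries, with the mean ± SD beside them and marker shape giving the library number. The 3 infarct libraries lie above all contralateral libraries for every gene except *Gal3st1* and *Fa2h*, and infarct 3 is the highest library for all genes but *Gal3st1*.

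*Mobp* and *Mbp*, which encode proteins of compact myelin, had the largest differences of the 9 genes. *Mbp* (ENSMUSG00000041607, chromosome 18, 82475146 to 82585637, GRCm38) encodes myelin basic protein, which draws the cytoplasmic faces of the membrane together. It had 1738, 1688 and 2736 CPM in infarcts 1, 2 and 3, against 756, 759 and 1009 CPM in contralateral libraries 1, 2 and 3. CPM are counts per 1000000 counts on genes, scaled between libraries by the TMM method of edgeR. Infarct 3 was well above the other two infarcts, and the lowest infarct still lay above the highest contralateral cortex. The means were 2054 ± 591 and 842 ± 145 CPM (SD, n = 3 per region), and the fitted log2 difference was 1.29 (SE 0.24, adjusted *p* = 9.04e-04, edgeR). The locus also encodes the golli proteins, which are made outside oligodendrocytes too, and counts per gene do not separate the 16 annotated transcripts.

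*Mobp* (ENSMUSG00000032517, chromosome 9, 120149707 to 120181484) encodes myelin-associated oligodendrocytic basic protein, another cytoplasmic protein of compact myelin. It had 563, 655 and 858 CPM in infarcts 1, 2 and 3, against 213, 237 and 235 CPM in contralateral libraries 1, 2 and 3. The contralateral libraries were nearly level, whereas each infarct library was at least 2-fold above all of them. The log2 difference of 1.60 (SE 0.19, adjusted *p* = 5.09e-05, edgeR) had a 95% interval from 1.18 to 2.02. *Mobp* was the only 1 of the 9 genes whose interval lay wholly above a 2-fold change.

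*Cnp* (ENSMUSG00000006782, chromosome 11, 100574904 to 100591729) encodes a phosphodiesterase of the cytoplasmic channels of noncompact myelin. It had 206, 217 and 330 CPM in infarcts 1, 2 and 3, against 121, 113 and 112 CPM in contralateral libraries 1, 2 and 3. The log2 difference was 1.12 (SE 0.19, adjusted *p* = 6.44e-04, edgeR), which fell to 0.89 without infarct 3 and was then below the fold threshold. Of the exon bases of *Cnp*, 4.23% are shared with *Dnajc7* on the opposite strand.

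The 3 other protein genes rose by less than 2-fold. *Mog* (ENSMUSG00000076439, chromosome 17, 37010743 to 37023398) encodes an immunoglobulin-like protein of the outermost myelin surface. It had 36.6, 41.0 and 58.3 CPM in infarcts 1, 2 and 3, against 20.6, 24.5 and 25.9 CPM in contralateral libraries 1, 2 and 3. The log2 difference was 0.94 (SE 0.20, adjusted *p* = 0.0026, edgeR). *Mag* (ENSMUSG00000036634, chromosome 7, 30899176 to 30914873) encodes an adhesion protein of the innermost layer, next to the axon. Its CPM were 62.5, 64.8 and 86.1 in infarcts 1, 2 and 3, against 38.7, 49.4 and 40.4 in contralateral libraries 1, 2 and 3. The lowest infarct and the highest contralateral cortex were closer for *Mag* than for *Mbp*, *Mobp*, or *Cnp*, and the log2 difference was 0.73 (SE 0.18, adjusted *p* = 0.00454, edgeR).

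*Mal* (ENSMUSG00000027375, chromosome 2, 127633226 to 127656695) encodes a proteolipid of lipid rafts that takes part in membrane sorting and is also known from T cells. It had 156, 250 and 275 CPM in infarcts 1, 2 and 3, against 142, 117 and 137 CPM in contralateral libraries 1, 2 and 3. Infarct 1 was only just above the contralateral range. The log2 difference was 0.78 (SE 0.21, adjusted *p* = 0.00872, edgeR). The 12 T cell genes listed as markers summed to 485 CPM in infarct 1, 361 CPM in infarct 2 and 281 CPM in infarct 3. Their part in the level of *Mal* was not tested. Most of these sums came from *Il7r*, a cytokine receptor, at 291, 285 and 231 CPM in infarcts 1, 2 and 3. The sums thus describe the other T cell genes poorly. In contralateral cortices the 12 genes summed to 7.38 to 8.53 CPM, and 6 of the 12 (*Cd3g*, *Cd3d*, *Cd2*, *Trbc1*, *Cd8a*, and *Cd5*) were at 3 counts or fewer in every contralateral library.

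Of the 3 genes for enzymes of galactolipid synthesis, *Ugt8a* passed the test and *Fa2h* and *Gal3st1* did not. *Ugt8a* (ENSMUSG00000032854, chromosome 3, 125865271 to 125938619), the galactosylceramide synthase, had 69.9, 97.9 and 128 CPM in infarcts 1, 2 and 3. In contralateral cortices 1, 2 and 3 it had 60.5, 62.4 and 64.3 CPM, the smallest relative spread of the 9 genes in that region. The log2 difference was 0.66 (SE 0.20, adjusted *p* = 0.0169, edgeR). Among the 7 upregulated genes it was the only one whose adjusted *p* rose above 0.05 under any alternative, with an adjusted *p* of 0.0636 without contralateral cortex 1 and 0.0589 without contralateral cortex 2 (edgeR), and a log2 fold change of 0.44 without infarct 3. Over all alternatives its adjusted *p* ranged up to 0.0636.

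*Fa2h* (ENSMUSG00000033579, chromosome 8, 111345135 to 111393824), the fatty acid 2-hydroxylase, had 12.4, 11.2 and 19.2 CPM in infarcts 1, 2 and 3, against 6.22, 11.9 and 10.2 CPM in contralateral libraries 1, 2 and 3. The regions overlapped, since infarct 2 lay below contralateral cortex 2. The log2 fold change of 0.61 did not pass the test (adjusted *p* = 0.0934, edgeR), and its 95% interval ran from -0.05 to 1.26, which includes the size of the change in *Ugt8a*. It passed when libraries were scaled by their totals alone (adjusted *p* = 0.0339) or when the filter on low counts was removed (adjusted *p* = 0.0405), in a range of 0.0339 to 0.306 over all alternatives (edgeR, DESeq2 and limma voom).

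*Gal3st1* (ENSMUSG00000049721, chromosome 11, 3983636 to 3999326), the cerebroside sulfotransferase, was the only gene of the 9 with a lower mean in infarcts. It was also the least counted, with 27, 44 and 47 reads in infarcts 1, 2 and 3 and 65, 49 and 51 reads in contralateral cortices 1, 2 and 3. These counts correspond to 2.15, 3.23 and 3.21 CPM in infarcts and 3.40, 3.19 and 4.71 CPM in contralateral cortices, and the regions overlapped. The log2 difference was -0.38 (SE 0.31, adjusted *p* = 0.299, edgeR), with a 95% interval from -1.07 to 0.31. It stayed between -0.49 and -0.17 under all alternatives and passed the test in none. A difference of *Gal3st1* between regions was thus not detected at this depth, and the lower end of the interval reaches beyond a 2-fold fall. The upper end of its interval lay below the fitted values of the 8 other genes, but not below all of their intervals. Those of *Ugt8a* (0.20 to 1.12) and *Fa2h* (-0.05 to 1.26) overlapped it, and that of *Mal* began at 0.31.

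Whether the genes moved in equal measure was examined within each library, where scaling between libraries plays no part. The log2 count of each gene was set against the mean log2 count of the 8 other genes in the same library (pseudocount 0.5), and the 9 resulting differences between regions were tested by a two-sided exact permutation test. Each gene is part of the reference of the 8 others, so the 9 differences are tied together, and a fall of any gene raises the others. With 3 against 3 libraries this test cannot give a *p* under 0.1, and adjusted over the 9 genes no value was under 0.18. *Mobp* gained most against the other genes, with relative levels of 3.16, 3.15 and 3.10 in infarcts 1, 2 and 3, against 2.29, 2.30 and 2.19 in contralateral libraries 1, 2 and 3. The difference was 0.88 on the log2 scale, many times the SD of 0.03 and 0.06 within regions (exact *p* = 0.1). *Mbp* gained 0.53 (exact *p* = 0.1), and its infarct and contralateral libraries did not overlap.

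*Gal3st1* lost most against the other genes. Its relative levels were -5.84, -5.45 and -5.95 in infarcts 1, 2 and 3, against -4.42, -4.68 and -4.15 in contralateral libraries 1, 2 and 3. The difference was -1.33 on the log2 scale, with no overlap between regions (exact *p* = 0.1), and stayed between -1.48 and -1.20 with any 1 library left out. *Ugt8a* differed by -0.20 and *Mog* by 0.13, both without overlap (exact *p* = 0.1 each). The small value of *Mog* depends on *Gal3st1* in its reference, whose own fold change between regions did not pass the test. *Mag*, *Mal*, *Cnp*, and *Fa2h* overlapped between regions, with differences of -0.08, -0.06, 0.33 and -0.21 and exact *p* values of 0.7, 0.7, 0.2 and 0.5. For a given amount of the other transcripts, each infarct library thus held more *Mobp* and *Mbp* RNA and less *Gal3st1* RNA than each contralateral library.

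**Figure D2:**
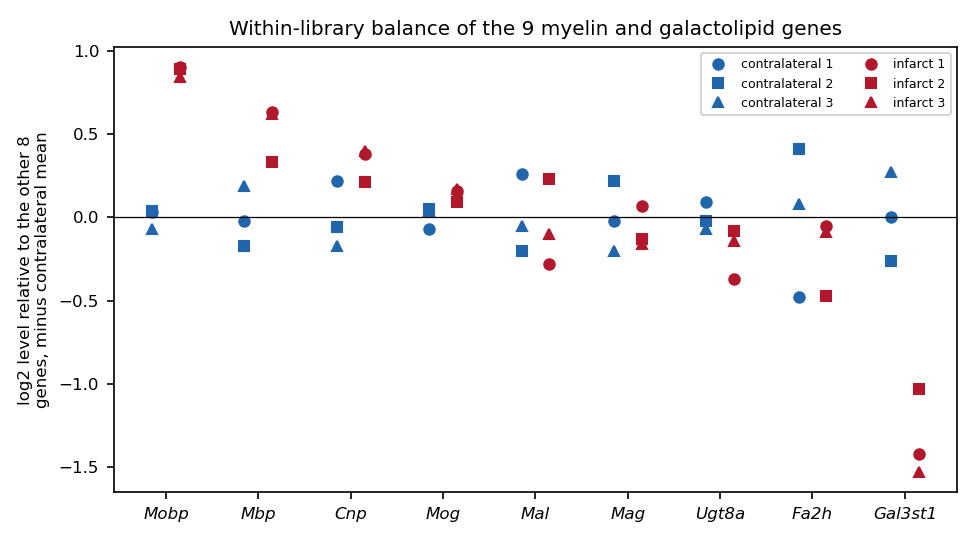
Level of each gene relative to the mean of the other 8 in the same library (log2 counts, vertical axis), shown minus the contralateral mean, for contralateral (blue) and infarct (red) libraries, with genes ordered by the difference between regions. *Mobp* stands 0.88 above and *Gal3st1* 1.33 below their contralateral balance on average, while *Mal* and *Mag* overlap between regions.

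Per kilobase of merged exons, *Mbp* was the most abundant transcript in both regions, at 242 ± 69.8 CPM per kb in infarcts and 99.4 ± 17.2 CPM per kb in contralateral cortices (SD, n = 3). It lay clear of the next gene in both regions, even though its merged exons include those of the golli transcripts. In contralateral cortices *Mal* came second at 47.6 ± 4.68 CPM per kb, above *Mobp* at 33.4 ± 1.92 and *Cnp* at 31.7 ± 1.47, and *Mobp* and *Cnp* did not differ beyond their spread. The place of *Mal* rests on the merged exons of all annotated transcripts, 2778 bases for *Mal* and 6849 for *Mobp*. Before division by length, *Mobp* was above *Mal* there, at 228 ± 13.2 and 132 ± 13 CPM. In infarcts *Mobp* came second at 101 ± 22.0 CPM per kb, and *Mobp*, *Mal* (81.7 ± 22.6), and *Cnp* (68.9 ± 18.9) overlapped from neighbor to neighbor. *Mog*, *Ugt8a*, and *Mag* followed in that order in both regions, from 26.6 to 17.5 CPM per kb in infarcts and from 13.9 to 10.5 CPM per kb in contralateral cortices. *Fa2h* and *Gal3st1* were lowest, at 4.75 ± 1.42 and 1.40 ± 0.302 CPM per kb in infarcts. They did not overlap there, but did in contralateral cortices, at 3.14 ± 0.965 and 1.84 ± 0.403 CPM per kb.

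The relative spread between libraries (coefficient of variation) was larger in infarcts for the 7 upregulated genes and about equal in both regions for *Gal3st1* and *Fa2h*. For 8 of the 9 genes infarct 3 was the highest infarct library, and for 7 infarct 1 was the lowest. The highest infarct was 1.38-fold (*Mag*) to 1.83-fold (*Ugt8a*) above the lowest. Among contralateral cortices the ratio was 1.06-fold for *Ugt8a* and reached 1.91-fold for *Fa2h*, and no library was the highest for more than 4 genes. The summed levels of the neuronal, astrocyte, and node and paranode lists had the same order among infarcts, as had that of the other oligodendrocyte genes. All 12 neuronal markers were downregulated in infarcts, and their summed level was 723 CPM in infarct 1, 1033 CPM in infarct 2 and 1893 CPM in infarct 3, compared with 10025 to 11027 CPM in contralateral cortices, where *Syt1*, a synaptic vesicle protein, was the most abundant. The summed level of the 12 genes of microglia and macrophages ran the other way, at 15156, 12278 and 10224 CPM in infarcts 1, 2 and 3. In contralateral cortices it was 193 to 270 CPM, and none of the genes was at 3 counts or fewer. Most of the sum in infarcts came from *Lyz2* and *Gpnmb*, and not every gene of the list kept its order. The part of this difference in tissue makeup in the levels of the myelin genes was not tested. Without infarct 3, the same number of the 9 genes, 7, was upregulated.

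**Figure D3:**
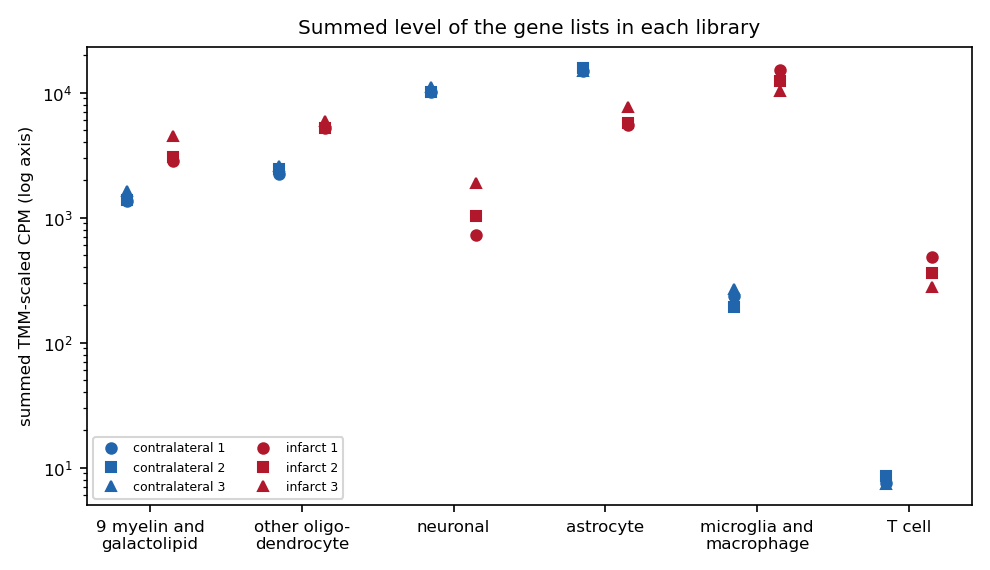
Summed TMM-scaled CPM (log axis) of the 9 myelin and galactolipid genes, 28 other genes of oligodendrocytes and the marker genes of 4 other cell types in each contralateral (blue) and infarct (red) library. Among infarcts, library 3 is highest for the 9 genes (4493 CPM) and for neuronal genes (1893 CPM), and library 1 is highest for microglia and macrophages (15156 CPM).

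Other genes of the oligodendrocyte were set beside the 9. Of 28 listed genes 27 were tested, of which 16 were upregulated, 1 was downregulated and 10 did not pass, with a median log2 fold change of 0.85. By the same rule 34.2% of all genes were upregulated and 30.8% downregulated. *Apod*, a lipid-binding apolipoprotein, and *Klk6*, a serine protease, had the largest log2 differences, at 4.97 and 4.96 (adjusted *p* = 3.48e-07 and 1.64e-05, edgeR). *Omg*, an oligodendrocyte glycoprotein that neurons also express, fell by 2.11 (adjusted *p* = 5.46e-05, edgeR). *Car2*, carbonic anhydrase 2, was at 137 ± 39.2 CPM in infarcts, compared with 152 ± 16.9 CPM contralaterally, and did not pass the test.

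Of 12 transcription factors of the lineage, 4 were upregulated and none was downregulated, compared with 34.2% and 30.8% of all genes, and the median log2 fold change was 0.16. The share upregulated was thus close to that of all genes. *Myrf*, which drives myelin genes in mature oligodendrocytes, had a log2 fold change of 0.99 (adjusted *p* = 0.00255, edgeR), and *Sox10*, which acts with it, one of 0.70 (adjusted *p* = 0.0209, edgeR). *Nkx6-2* and *Tcf7l2* were the other two, at 1.79 and 1.75, the former from means of 1.58 and 0.441 CPM. *Olig2*, which marks the whole lineage, and *Sox8* had log2 fold changes of -0.73 and -0.42 that did not pass (adjusted *p* = 0.0693 and 0.0958, edgeR). Of 10 genes of oligodendrocyte precursors, 5 were upregulated and 1 was downregulated. Their summed level was 618 to 723 CPM in infarcts, compared with 555 to 623 CPM contralaterally, so that these ranges overlapped. *Pdgfra*, known from fibroblasts as well, was the most abundant in infarcts, and *Tnr*, which encodes the matrix protein tenascin-R, was the most abundant in contralateral cortices. *Tnr* was the gene that was downregulated, from 371 ± 24.5 to 114 ± 32.1 CPM (log2 difference -1.69, adjusted *p* = 5.98e-05, edgeR).

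Of 12 genes of the axon and glia junctions at nodes and paranodes, many of them neuronal, 8 were downregulated and 2 upregulated, with a median log2 fold change of -2.20. Over all genes tested, 30.8% were downregulated and 34.2% upregulated. *Cntnap2* and *Ank3*, proteins of the axon at and beside the node, had the lowest values, at -2.83 and -2.67. *Gldn*, gliomedin, and *Tjp1*, a tight junction scaffold, were upregulated, at 2.30 and 0.94. Myelin made by Schwann cells uses *Mbp*, *Mag*, and *Mal* as well. Of 12 Schwann cell genes 6 were tested, of which 2 were upregulated and 2 downregulated, close to the shares of all genes. The summed level of the 12 is given next. It was 273 to 295 CPM in infarcts, compared with 211 to 238 CPM contralaterally, most of it in infarcts from *Pmp22*, which many cell types express. Contralaterally most of it came from the downregulated genes, *Drp2* and *Mlip*, at means of 127 and 57.1 CPM, so the sums rest on unlike genes. *Egr2* was upregulated beside *Pmp22* (log2 difference 2.19, adjusted *p* = 1.83e-04, edgeR). *Foxd3* and *Pmp2* were at 3 counts or fewer throughout, although 86.9% of the exon bases of *Pmp2* are shared with *Gm37389* in the same orientation.

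The steps before and after galactolipid synthesis were then followed. Of 16 tested genes of ceramide supply, 8 were upregulated and 4 downregulated, with a median log2 fold change of 0.59. The shares over all genes tested were 34.2% and 30.8%. *Cers2*, the ceramide synthase for the very long chains found in myelin lipids, averaged 164 ± 58.4 CPM in infarcts compared with 31.4 ± 8.08 CPM contralaterally (log2 difference 2.39, adjusted *p* = 9.67e-05, edgeR). *Sptssa*, a small subunit of serine palmitoyltransferase, had a log2 fold change of 2.30. *Cers1*, the ceramide synthase of neurons, fell by 1.63 and *Elovl4*, a fatty acid elongase, by 2.68, and 42.5% of the exon bases of *Cers1* are shared with *Gdf1*, in the same orientation. Astrocytes also make sphingolipids, and the homeostatic astrocyte list had 3 of 10 genes upregulated and 5 downregulated, among the latter *Slc1a2*, its most abundant gene. The summed level of the list was 5459 to 7683 CPM in infarcts, compared with 14885 to 15787 CPM contralaterally, with none at 3 counts or fewer. That difference came from *Slc1a2*, at 2933 ± 859 CPM in infarcts and 12297 ± 624 CPM contralaterally. The sum therefore does not describe the other genes of the list.

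Of 12 genes listed around the galactose and sulfate donors, 5 were upregulated and 3 downregulated, near the 34.2% and 30.8% of all genes, and the median log2 difference was 0.20. The list is broader than donor supply, since it holds *Slc35a1*, a transporter of CMP-sialic acid (upregulated, 0.73), and *Bpnt1* and *Impad1*, phosphatases that break down the spent sulfate donor. *Bpnt1* fell by 0.74 and *Impad1* by 0.64 (adjusted *p* = 0.0027 and 0.00346, edgeR). *Papss2*, which makes the sulfate donor used by the *Gal3st1* product, averaged 89.2 ± 5.0 CPM in infarcts compared with 20.6 ± 1.77 CPM contralaterally (log2 difference 2.11, adjusted *p* = 1.65e-06, edgeR). *Papss1*, which makes the same donor, was at 58.4 ± 7.4 and 52.7 ± 4.5 CPM and did not pass (log2 difference 0.15, adjusted *p* = 0.417, edgeR). *Galk1*, galactokinase, had a log2 fold change of 1.66. Of 8 enzymes that use ceramide or its glucosylated form for other lipids, 3 were upregulated and 5 downregulated. The shares over all genes were 34.2% and 30.8%. *Ugcg*, which places glucose on ceramide where *Ugt8a* places galactose, fell by 1.01, from 147 ± 11.3 to 73.4 ± 3.07 CPM (adjusted *p* = 1.10e-04, edgeR). *St3gal5*, the next sialyltransferase toward gangliosides, fell by 2.20. *Sgms2*, a sphingomyelin synthase, and *Cerk*, ceramide kinase, were the highest, at 2.37 and 1.12.

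Lysosomal breakdown of galactolipids and related sphingolipids was covered by 13 genes, of which 11 were upregulated and none downregulated, with a median log2 fold change of 2.22. This compares with 34.2% and 30.8% of all genes. *Arsa*, which removes the sulfate that the *Gal3st1* product adds, averaged 49.4 ± 14.9 CPM in infarcts compared with 25.7 ± 8.81 CPM contralaterally (log2 difference 0.94, adjusted *p* = 0.0207, edgeR), 18.8% of its exon bases being shared with an opposite-strand gene, *C230037L18Rik*. *Galc*, which removes the galactose that the *Ugt8a* product adds, averaged 151 ± 26.1 and 29.4 ± 4.79 CPM (log2 difference 2.35, adjusted *p* = 3.78e-06, edgeR). *Psap*, the precursor of the saposins that present these lipids to the hydrolases, was at 4273 ± 1109 and 776 ± 79.6 CPM. *Hexa* and *Gla* had the highest log2 fold changes, 3.48 and 2.60, and *Smpd1* and *Neu1* the lowest, -0.21 and 0.10, neither of which passed. Among infarcts the summed level of these genes was highest in infarct 1, at 7363 CPM, where the 9 genes had their lowest sum, 2846 CPM. The 12 microglia and macrophage genes, all upregulated and with *Lyz2* the most abundant in infarcts, were also highest in infarct 1, and their part in the levels of these hydrolases was not tested.

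The genes most like the 9 across libraries were sought by the distance between log2 CPM profiles, each centered over the 6 libraries, and the median profile of the 9. The 10 nearest were *Kif6*, *Amotl2*, *Pwwp2b*, *Gpam*, *Tspan15*, *Fam189a2*, *Entpd5*, *Sox10*, *Lrrc2*, and *Gpc1*, with distances from 0.224 to 0.280. *Sox10* was the only 1 of these 10 that was on any of the lists used here. A pseudocount of 0.5 was added to CPM before the log, which shrinks the differences of genes with low levels. *Kif6*, at means of 1.43 CPM in infarcts and 0.515 CPM contralaterally, is such a gene. Its fitted log2 fold change was 1.48, compared with the median of 0.78 over the 9 genes. *Ermn* and *Tspan2*, which encode proteins of the oligodendrocyte, stood at 24 and 28 of 15545 genes, while *Omg* and *Apod* stood at 13629 and 15162. Of the 9 genes themselves *Mog* was nearest to the median profile, with a distance of 0.171 and no other gene closer, and *Gal3st1* was farthest, with a distance of 1.49 and 6995 other genes closer. Most of each profile is the difference between the regions, so these distances describe 6 libraries and carry no test.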

How the data were processed

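Bulk RNA-Seq libraries of both regions (3 each) were used. The authors prepared stranded mRNA libraries and, per the labels and the paper's methods, demultiplexed reads with bcl2fastq 2.19, trimmed them with Trimmomatic 0.32, aligned them to GRCm38 with STAR 2.5.2b and counted them with HTSeq. The deposited values are raw counts per Ensembl gene, without normalization. The HTSeq version, annotation and strand setting are not given in the sources used here. Entries that name no gene (26.6% to 34.3% of tallied reads) were left out.

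Symbols, positions and merged exon lengths came from GENCODE M21 on GRCm38, which held 45229 of 46078 identifiers, and promoter windows came from RefSeq (GRCm38.p6), using the window nearest to the GENCODE start. Differences were fitted with edgeR 4.0.16 under R 4.3.3, using filterByExpr, TMM scaling, region as the only term and robust quasi-likelihood tests, with Benjamini-Hochberg adjustment over 15554 genes. Upregulated and downregulated here mean an adjusted *p* under 0.05. The procedure was tested on simulated data. Tables and plots used Python 3.11.15, pandas 2.3.3, SciPy 1.17.1 and matplotlib 3.10.9. Alternatives were DESeq2 1.42.0, limma 3.58.1 voom, other scalings, other filters, no fold threshold, thinned counts, a replicate block and each library left out.

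The 9 genes and all lists were chosen with earlier results of these data known. Named are all 9 genes, of each list around them the 2 genes with the highest and the 2 with the lowest log2 fold change, pathway genes set by name (*Sox10*, *Myrf*, *Olig2*, *Cers2*, *Ugcg*, *Galc*, *Arsa*, and *Psap*), the most abundant gene of each cell type list, markers at 3 counts or fewer, and the 10 genes nearest in profile. *Ermn*, *Tspan2*, *Tnr*, *Slc35a1*, *Bpnt1*, *Impad1*, *Papss1*, *Drp2*, *Mlip*, *Egr2* and, for their rank, *Omg* and *Apod* were named after their values were seen. Some genes that the rule names are not reported here. Counts per library limit precision most for *Gal3st1*, and intervals on fitted values cover the spread between libraries.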

Additional observations from a re-analysis of the deposited data

How the results depend on the processing

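All 9 genes kept the direction of their fold change under every alternative, while the small within-library differences of *Mag* and *Mal* changed sign, to 0.03 and 0.07, in leave-one-out comparisons. The number upregulated was 7 in the main analysis and with DESeq2, limma voom, RLE size factors, the upper quartile, thinned counts or a minimum of 10 counts in every library. It was 8 with library totals and without a filter, where *Fa2h* joined, and 6 to 7 with 1 library left out, where *Ugt8a* was lost without contralateral cortex 1 or 2. The number called beyond 2-fold was 3, and 7 with no fold change threshold. With 1 library left out it ranged from 2, without infarct 3, to 5, without infarct 1, where *Mog* and *Mal* stood at 1.09 and 1.01. Scaling by library totals moved the median over all genes tested by 0.20 (log2), and *Mog* then stood at 1.15. Over the 6 leave-one-out fits the log2 fold change of *Mbp* ranged from 1.04 to 1.44 and that of *Mobp* from 1.43 to 1.75.

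No pairing of the libraries by replicate number was seen, although 3 libraries per region cannot exclude it. Correlations of same-numbered deviations from the region means were -0.19, 0.101 and 0.0011. With the replicate number as a block, 7 genes were again upregulated and 3 called beyond 2-fold, and no call changed.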
